A study of Mus musculus with 6 samples.

Results

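The genes described here are 8 immunity-related GTPase (IRG) genes of the mouse, chosen by symbol from the 14701 genes of the deposited tables. All 8 had a row in every table. They are Iigp1 on chromosome 18 and, on chromosome 11, Tgtp1, Tgtp2, Ifi47, Gm12185, Gm5431, 9930111J21Rik1 and 9930111J21Rik2. RNA was sequenced from IEC 4.1, a mouse line labelled as intestinal epithelium, in 3 libraries from cells exposed to interferon-gamma (10 ng/ml, 6 h; replicates 1, 2 and 4) and 3 libraries from control cells (replicates 2, 3 and 4). The labels do not state that replicates are separate cultures, so p-values measure the spread between these libraries, which may be technical, and all 6 come from the same line. No time is given for the controls, so whether they were kept for the same 6 h is not known. The comparison asks how far interferon-gamma moves each of these genes from its control level.

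IRG proteins are made when interferon-gamma binds its receptor and signals to the nucleus through the kinases Jak1 and Jak2. Effector IRGs such as Iigp1 (also called Irga6), the Tgtp proteins (Irgb6) and Ifi47 (Irgd) collect on the vacuole around Toxoplasma or Chlamydia and help to break it open, while the regulatory Irgm proteins keep the effectors inactive on the cell's own membranes. Gm12185, Gm5431 and both 9930111J21Rik genes encode tandem IRGs, in which a pair of GTPase units is joined in a single chain. The tandem IRG that RefSeq gives as a synonym of Gm12185, Irgb2b1, is known from wild-derived mice for resistance to virulent Toxoplasma.

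The libraries were even, with 17490689 to 18678543 counts in treated and 18288259 to 18516091 in control samples. Of 12 epithelial marker genes, 8 had values, all below 1 TPM (abundance scaled for transcript length and library) in every library, with a summed level of 0.55 to 0.7 TPM in treated and 0.72 to 1.14 TPM in control libraries, and Epcam, Cdx2, Cldn3 and Cldn7 had no values, so the labelled tissue was not borne out by these markers. Of 9 mesenchymal markers, 8 had values, and they summed to 3425 to 3612 TPM in treated and 3284 to 3461 TPM in control libraries. Most of that sum was Vim, at a mean of 2870 TPM in treated and 2510 TPM in control libraries. Of the 8, 1 was below 1 TPM in every library, and Thy1 had no values. Of 10 leukocyte markers, 5 had values and summed to 23.8 to 24.6 TPM in treated and 26.9 to 32.0 TPM in control libraries, most of it Cd14, while the general leukocyte gene Ptprc was at 0 TPM on average in treated libraries and at 0.0133 TPM in controls. In bulk RNA, a change in the number of expressing cells and a change in RNA per cell cannot be told apart.

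The 7 genes on chromosome 11 fill a stretch of 210 kb, and their start regions fall into groups. RefSeq (build GRCm38.p6) gives a promoter window, 250 bases before to 50 after the annotated start, for all 7. The windows were searched on both strands for the letters TTCNNNGAA, the gamma-activated site (GAS) of interferon-gamma target genes, and for GAAA followed by any 2 letters and GAAA, the core of the interferon-stimulated response element (ISRE) bound by interferon regulatory factors. GAS letters occur in 8.29% and ISRE core letters in 3.43% of the 32817 promoter windows of the genome, and both together in 0.451%. Both were found in the windows of Tgtp1, Tgtp2 and Gm12185, on the same strand and in the same order. The first set below shows those 3 genes, as the 100 bases from -90 to 9 with the start counted as 0, 5′ to 3′ on the minus strand, with GAS and then ISRE core in capitals:
Tgtp1, chr11:48992237-48992336: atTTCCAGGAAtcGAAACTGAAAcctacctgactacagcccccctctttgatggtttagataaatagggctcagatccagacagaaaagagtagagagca
Tgtp2, chr11:49064203-49064302: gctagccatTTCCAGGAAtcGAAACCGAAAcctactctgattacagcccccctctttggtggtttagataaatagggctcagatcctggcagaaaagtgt
Gm12185, chr11:48927173-48927272: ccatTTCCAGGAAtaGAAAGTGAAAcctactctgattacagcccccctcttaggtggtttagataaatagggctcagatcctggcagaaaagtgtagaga

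In each of the 3 the GAS letters TTCCAGGAA were the same, and the ISRE core letters followed after a spacer of the same length. The ISRE core read GAAACTGAAA in Tgtp1, GAAACCGAAA in Tgtp2 and GAAAGTGAAA in Gm12185. Over the whole window, Gm12185 and Tgtp2 were identical at 96.6% of 295 aligned bases, and Tgtp1 and Tgtp2 at 83.3% of 269. The second set shows the same 100 bases of the other 3 tandem genes, also on the minus strand, in which neither motif lies:
Gm5431, chr11:48902143-48902242: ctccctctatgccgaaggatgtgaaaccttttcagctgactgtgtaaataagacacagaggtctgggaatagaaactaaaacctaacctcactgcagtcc
9930111J21Rik1, chr11:48979372-48979471: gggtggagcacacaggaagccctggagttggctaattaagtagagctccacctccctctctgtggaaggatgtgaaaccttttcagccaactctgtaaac
9930111J21Rik2, chr11:49051233-49051332: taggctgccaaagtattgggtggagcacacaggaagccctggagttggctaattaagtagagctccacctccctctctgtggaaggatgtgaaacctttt

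Those 3 windows also resemble each other: 9930111J21Rik1 and 9930111J21Rik2 were identical at all 283 aligned bases, and Gm5431 matched 9930111J21Rik1 at 85.0% of 246. No GAS letters lie in the 3 windows. ISRE core letters, GAAATAGAAA, lie in the 9930111J21Rik1 window after the start, at bases 26 to 35 from it, and the window of 9930111J21Rik2 ends within the same letters. The window of Ifi47 held neither motif, but it sits at the most upstream annotated start, and the other 4 annotated Ifi47 transcripts begin 10113 to 11677 bases downstream of it. Other starts are annotated for Gm5431, 7440 bases downstream of its window's start, and for Tgtp1, at -644 and -1926, upstream of its window. For Gm12185, 1 of 3 transcripts begins at -65044, upstream of the window and near the start of Tgtp1. That transcript runs over 9930111J21Rik1 and Tgtp1. A match of letters is not evidence of binding, and the lack of a match covers these windows only.

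The summed level of the 8 genes was 1833 to 2008 TPM in treated libraries and 7.44 to 8.13 TPM in control libraries. Iigp1, Tgtp1, Tgtp2 and Ifi47 held 96.5% to 97.0% of that sum in treated libraries and 34.7% to 49.2% in controls. In controls most of the sum came from 9930111J21Rik1 and Ifi47, with 82.0% to 85.8%, and these 2 genes held 15.1% to 16.7% of it in treated libraries.

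All 8 genes rose in edgeR's quasi-likelihood test over 11423 genes, at Benjamini-Hochberg adjusted p from 4.51e-25 to 2.48e-06 (n = 3 per group). Of all genes tested, 19.9% rose by the same rule, 38.1% passed in either direction, 4.03% rose at least 2-fold, 5.08% changed at least 2-fold in either direction, and 24.7% had every treated library above every control library. Only 3 of the 8, Ifi47, 9930111J21Rik1 and 9930111J21Rik2, had counts of 10 or more in controls. The other 5 were under 10 counts in every control library and passed the low-count filter through the treated libraries alone, so their being called adds nothing to the count. The fitted log2 changes ran from 1.67 in 9930111J21Rik2 to 15.41 in Iigp1, against a median of 0.009 over all genes tested.

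**Figure D1:**
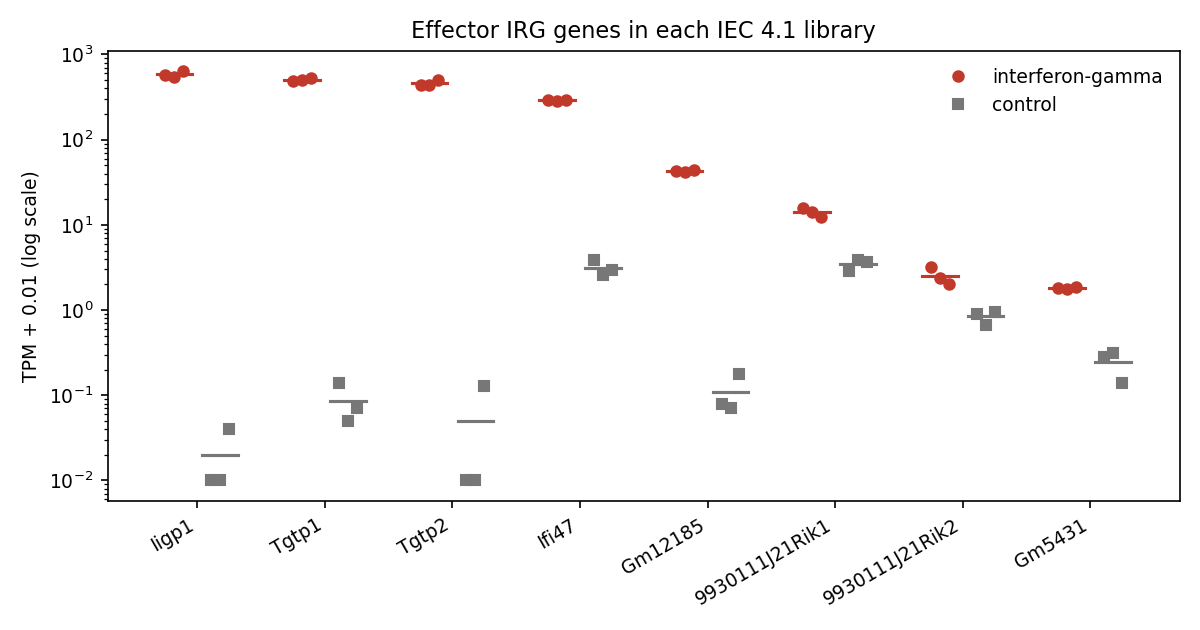
Level of each gene in each library, as TPM plus 0.01 on a log axis, with the 3 treated libraries as red circles left of the 3 control libraries as grey squares and short lines at the group means. No treated library overlaps a control library in any of the 8 genes, and the gap is widest for Iigp1, whose treated libraries lie between 546 and 636 TPM while 2 controls are at 0.

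Iigp1 (NCBI Gene 60440, chromosome 18, 60373616 to 60392634), an effector that coats the Toxoplasma vacuole, was all but absent from controls. It had 18153, 18480 and 20022 counts in treated replicates 1, 2 and 4, against 0, 0 and 1 count in control replicates 2, 3 and 4. A count of 0 allows up to 0.16 CPM (counts scaled to library size) in each of those controls. In level this was 569, 546 and 636 TPM in treated and 0, 0 and 0.03 TPM in control libraries. The depth-scaled ratio of treated to control totals was 60300 (exact 95% binomial interval 10800 to 2380000, which covers counting error only). The single control read came from control replicate 4, and without that library the ratio was at least 13300-fold, set against 3 counts over the group. Without control replicate 2 or 3 it was 40200 or 39900. The fitted rise of Iigp1 was first of the 11423 genes tested, among which no gene at 0 in all controls was listed. The rise was log2 15.41 ± 0.203 (SE between replicates, edgeR adjusted p = 1.32e-24). Both the rise and its SE depend on prior counts because the controls are near 0, and the SE is too narrow for that reason.

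Tgtp1 and Tgtp2, near-identical copies that both encode Irgb6, are best read together. Tgtp1 (NCBI Gene 21822, chromosome 11, 48985329 to 48992246) had 14269, 15365 and 15086 counts in treated replicates 1, 2 and 4, against 4, 1 and 1.66 counts in control replicates 2, 3 and 4. Tgtp2 (NCBI Gene 100039796, chromosome 11, 49057196 to 49064212) had 12645, 13622 and 14232 counts in the same treated libraries, against 0, 0 and 3.34 counts in the controls. No control library of either gene passed 4 counts, and the treated and control libraries lay far apart. Some of these counts carry decimals, as given by counters that divide reads between genes, but the sum of Tgtp1 and Tgtp2 came to whole numbers in all 6 libraries, namely 26914, 28987 and 29318 in treated and 4, 1 and 5 in control libraries.

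Fitted as 1 gene, the Tgtp pair rose by 13.09 on the log2 scale (edgeR adjusted p = 3.84e-25). Apart, Tgtp1 rose by 12.66 ± 0.29 (edgeR adjusted p = 4.51e-25), or 13.25 without control replicate 2, which held most of its control reads. Tgtp2 had a depth-scaled ratio of 14400 (95% interval 4910 to 69700) on 40499 treated and 3 control counts. All of the control reads given to Tgtp2 were in control replicate 4. Without that library the ratio was 9470-fold, set against 3 counts over the group. Both this value and the interval take the split of reads as deposited. The pair had 4 reads in control replicate 2 and 1 in control replicate 3, all given to Tgtp1. If some of those reads belong to Tgtp2, its ratio is lower than given. Without control replicate 2 or 3 the ratio was 9580 or 9510. Tgtp1 took 53.0%, 53.0% and 51.5% of the pair's reads in treated replicates 1, 2 and 4, so the reads were split close to evenly. In control replicates 2, 3 and 4 it took 100%, 100% and 40.0% of so few rounded reads that no share can be read there.

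The copies are also nearly the same in sequence. The coding sequences of Tgtp1 and Tgtp2 in GENCODE M21 differ at 4 of 1245 bases, and 80.0% of all 100-base windows of the Tgtp1 transcript occur also in Tgtp2. The level of each Tgtp gene is therefore less certain than that of the pair. The loci 9930111J21Rik1, Tgtp1, 9930111J21Rik2 and Tgtp2 follow each other in that order, with 5.95 kb between 9930111J21Rik1 and Tgtp1 and again 5.95 kb between 9930111J21Rik2 and Tgtp2.

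Ifi47 (NCBI Gene 15953, chromosome 11, 49076587 to 49096987), the effector Irgd, differed from the genes above in its controls. It had 4907, 5073 and 4792 counts in treated replicates 1, 2 and 4, against 68, 43 and 51 counts in control replicates 2, 3 and 4. In level it averaged 291 ± 3.37 TPM in treated libraries and 3.13 ± 0.678 TPM in controls (SD, n = 3 each). The rise was 6.60 ± 0.186 on the log2 scale, or 96.8-fold (edgeR adjusted p = 3.54e-23), and the groups lay far apart, the lowest treated library being 75.5 times the highest control in CPM. Every Ifi47 count was a whole number, and none of its 100-base transcript windows occurs in another gene.

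Gm12185 (NCBI Gene 620913, chromosome 11, 48904656 to 48927182), a tandem IRG, stood apart from the other tandem genes. It had 2482, 2574 and 2525 counts in treated replicates 1, 2 and 4, against 4.04, 3.41 and 9.9 counts in control replicates 2, 3 and 4. Its level was 43.2 ± 1.15 TPM in treated and 0.1 ± 0.0608 TPM in control libraries (SD, n = 3 each), with a rise of 8.86 ± 0.38 on the log2 scale, or 464-fold (edgeR adjusted p = 1.96e-22), and 9.52 without control replicate 4. The treated libraries lay close together, whereas control replicate 4 was above the other 2 controls, and no libraries of the groups overlapped.

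Gm5431 (NCBI Gene 432555, chromosome 11, 48887422 to 48902152) lies 2.5 kb from Gm12185 and encodes a close relative. It had 55.5, 57.96 and 56.19 counts in treated replicates 1, 2 and 4, against 8.59, 9.17 and 3.95 counts in control replicates 2, 3 and 4. It rose by 3.02 ± 0.293 on the log2 scale, or 8.1-fold (edgeR adjusted p = 5.04e-09), with 1.8 TPM in treated libraries and 0.233 TPM in controls. The groups did not overlap, but the treated level was the lowest of the 8 genes. Gm5431 shares sequence with the far more abundant Gm12185: 4.82% of the 100-base windows of the Gm12185 transcript occur also in Gm5431. All 6 counts of both genes carried decimals. How many of the reads given to Gm5431 came from Gm12185 was not tested, so the rise of Gm5431 is less certain than its p-value.

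9930111J21Rik1 (NCBI Gene 667214, chromosome 11, 48946150 to 48979381) had, with Ifi47, the highest control level of the 8, and the ranges of both overlapped. It had 654, 626 and 496 counts in treated replicates 1, 2 and 4, against 124, 154 and 148 counts in control replicates 2, 3 and 4. The rise was 2.15 ± 0.134 on the log2 scale, or 4.43-fold (edgeR adjusted p = 1.37e-13). Its copy 9930111J21Rik2 (NCBI Gene 245240, chromosome 11, 49037660 to 49051242) had 77, 60.66 and 48.2 counts in treated replicates 1, 2 and 4, against 22.96, 15.79 and 22.64 counts in control replicates 2, 3 and 4. It rose by 1.67 ± 0.229, or 3.18-fold (edgeR adjusted p = 2.48e-06), the smallest rise of the 8. Both copies were lowest, among treated libraries, in replicate 4, in counts and in CPM. Each of the other members was highest in CPM in that library.

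The 9930111J21Rik copies differ at 11 of 2532 coding bases, and 63.0% of the 100-base windows of the 9930111J21Rik1 transcript occur in 9930111J21Rik2. The first gene of the pair took 89.5%, 91.1% and 91.2% of their rounded reads in treated replicates 1, 2 and 4, against 84.4%, 90.6% and 86.5% in control replicates 2, 3 and 4, and these ranges overlap. Summed, the pair rose by 2.09 on the log2 scale (edgeR adjusted p = 1.07e-13). The right end of Psme2b, a gene with the name of a proteasome activator subunit, overlaps the left end of 9930111J21Rik1 by 261 bases in RefSeq. In GENCODE M21 both genes lie on the minus strand. The overlap is shorter there, with Psme2b ending at 48946190 and 9930111J21Rik1 beginning at 48946150. Psme2b rose by 2.14 ± 0.198 (edgeR adjusted p = 7.2e-09), and reads over that stretch cannot be told apart between these genes. Its counts carried decimals in every library, with 83.71, 108.32 and 86.86 in treated replicates 1, 2 and 4. They were 28.5, 18.47 and 21.15 in control replicates 2, 3 and 4. How far Psme2b shares reads with other genes was not measured.

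**Figure D2:**
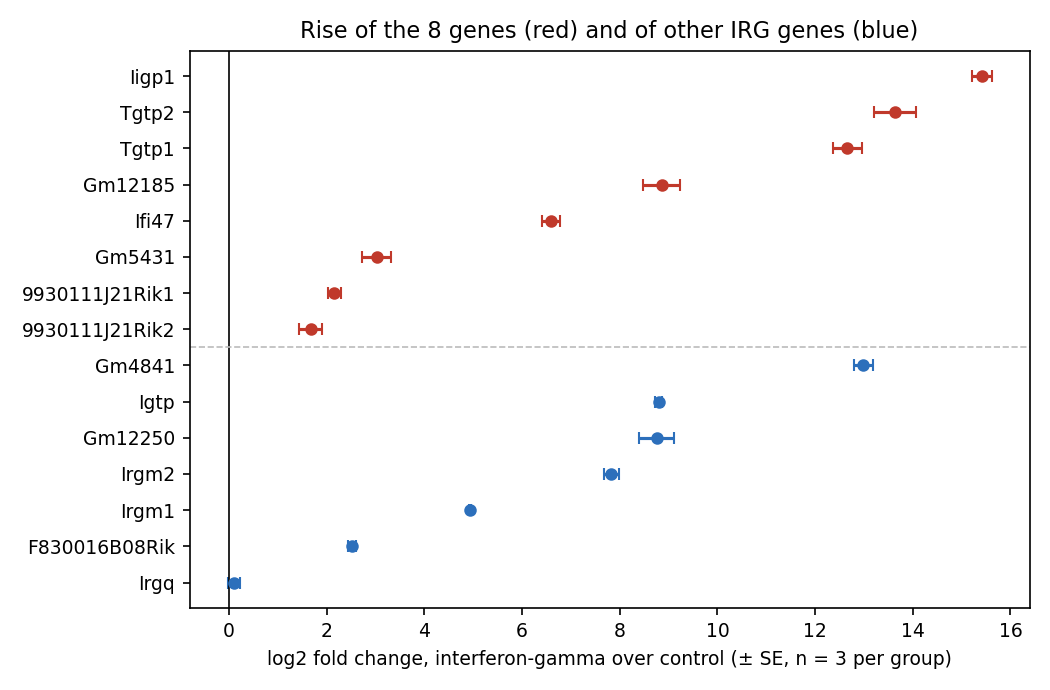
Log2 fold change of interferon-gamma over control for the 8 genes in red and for the other tested IRG genes in blue, with the SE between replicates as bars (n = 3 per group, edgeR fit). Iigp1, Tgtp2 and Tgtp1 lie above 12 together with Gm4841 among the other IRG genes, and the 3 tandem genes Gm5431, 9930111J21Rik1 and 9930111J21Rik2 lie at 3.02 or below.

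The tandem genes are related differently in coding sequence and in start region. In coding sequence Gm12185, with 2505 bases, was identical to Gm5431 at 93.9% of 2502 aligned bases and to 9930111J21Rik1 at 93.8% of 2503. To Tgtp2 it was identical at 79.2% of only 1227 aligned bases. In the promoter window Gm12185 was 96.6% identical to Tgtp2 over 295 aligned bases, and 73.4% to Gm5431 over only 199. Percentages over such unlike lengths are not on one scale. The log2 change of Gm12185, 8.86, lay between the 3.02 of Gm5431 and the 13.09 of the summed Tgtp pair. Whether start regions bear on the size of a rise was not tested. Within each library, 3 pairs of adjacent genes, chosen after their values were seen, are given as a description of the same counts. The log2 ratio of Gm12185 to Gm5431 counts (with 0.5 added to each) was 5.46 to 5.48 in treated and -1.31 to 1.22 in control libraries, a mean difference of 5.83. For Tgtp2 over 9930111J21Rik2 the ratio was 7.35 to 8.19 in treated and -5.55 to -2.59 in control libraries, and for Tgtp1 over 9930111J21Rik1 it was 4.45 to 4.92 in treated and -6.68 to -4.79 in control libraries. In all 3 pairs the first gene had more counts than its neighbour in every treated library, and both Tgtp genes had fewer than theirs in every control library.

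Ranked per transcript length, the treated levels ran from Iigp1 with 583 ± 46.7 TPM through Tgtp1 with 505 ± 18.5, Tgtp2 with 456 ± 33.4, Ifi47 with 291 ± 3.37, Gm12185 with 43.2 ± 1.15, 9930111J21Rik1 with 14.1 ± 1.85 and 9930111J21Rik2 with 2.5 ± 0.591 to Gm5431 with 1.8 ± 0.0404 (SD, n = 3). Only Tgtp1 and Tgtp2 overlapped among neighbours in this order. Iigp1 was 261st of the 14701 genes by mean treated TPM and Gm5431 was 10229th. In controls the order was different. 9930111J21Rik1, at 3.45 ± 0.499 TPM, and Ifi47, at 3.13 ± 0.678 TPM, came first and overlapped. 9930111J21Rik2 followed at 0.833 ± 0.151 TPM, overlapping neither Ifi47 nor the next gene. From Gm5431, at 0.233 ± 0.0907 TPM, through Gm12185 and both Tgtp genes to Iigp1, at 0.01 ± 0.0173 TPM, each gene overlapped its neighbour. Genes farther apart in that order did not all overlap: Gm5431, at 0.13 to 0.3 TPM, lay above Tgtp2, at 0 to 0.12 TPM, and Gm12185 and Tgtp1 lay above Iigp1, which reached 0.03 TPM. These levels rest on fewer than 10 counts per library.

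Replicate spread is given here as a description of 3 treated libraries per gene, and differences between genes were not tested. Over treated libraries the coefficient of variation of CPM was 1.7% for Ifi47, 2.84% for Gm5431, 3.74% for Gm12185 and 5.61% for Tgtp1. It was 8.94% for Tgtp2, 8.95% for Iigp1, 11.1% for 9930111J21Rik1 and 21.1% for 9930111J21Rik2. The widest spread was in the 9930111J21Rik pair, and this held for counts not scaled for depth, at 14.2% for 9930111J21Rik1 and 23.3% for 9930111J21Rik2. Gm5431 had only 55.5 to 57.96 counts per treated library, and 9930111J21Rik2 only 48.2 to 77. At so few counts, counting error can move a gene's place in this order, and it was not set apart.

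Read sharing was measured as the part of a gene's 100-base transcript windows that occur exactly in a transcript of another gene. It was 83.3% for Tgtp1, 80.4% for Tgtp2, 64.6% for 9930111J21Rik1, 40.3% for 9930111J21Rik2, 26.8% for Gm5431 and 5.4% for Gm12185. No such window was found for Iigp1 or Ifi47. With 50-base windows the share was 91.4% for Tgtp1, 47.6% for Gm5431, 17.2% for Gm12185, 4.13% for Iigp1, all of the last in Gm4951 and Gm5970, and 0% for Ifi47. The labels state no read length, so these shares rank the genes and do not give the part of reads that was shared. The decimals run alongside, since Iigp1 and Ifi47 had only whole counts while the other 6 genes had decimals in 4 to 6 of their 6 counts.

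**Figure D3:**
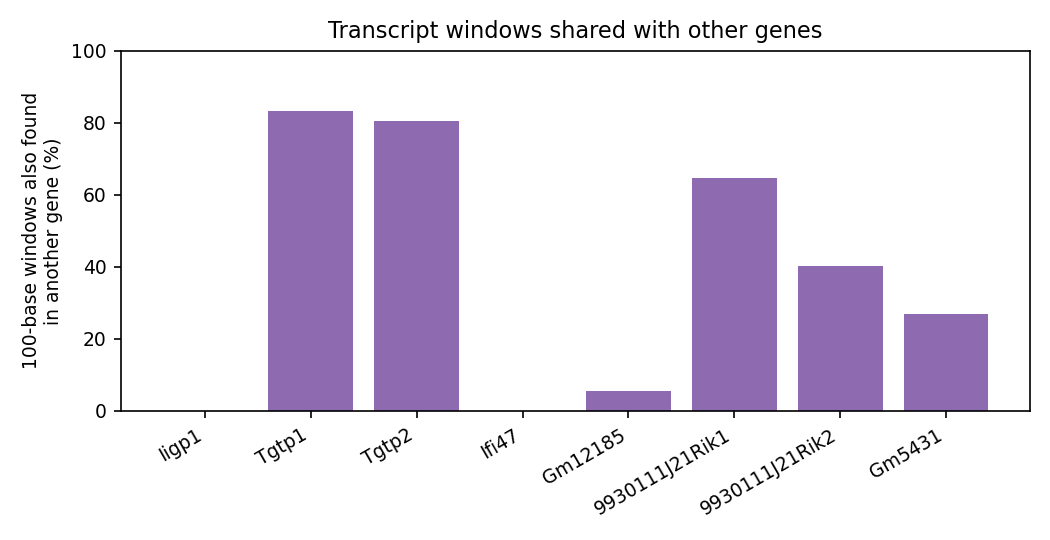
Share of the 100-base windows of each gene's GENCODE M21 transcript that occur exactly in another gene, in percent, with genes ordered by treated level. Both Tgtp genes stand above 80%, 9930111J21Rik1 at 64.6% and Gm12185 at 5.4%, while Iigp1 and Ifi47 are at 0.

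The deposited tables also place 5 of the 8 genes (Tgtp2, Ifi47, Gm5431, Gm12185 and 9930111J21Rik2) on alternate scaffolds and not on the main chromosome (62.5%), against 793 of all 14701 genes, or 5.39%. Their transcript lists name up to 4 loci for the same RefSeq transcript, for Ifi47, Gm5431 and Gm12185. Whether their counts sum over these copies is not stated by the labels, and the effect on the values was not tested.

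The genes around the 8 moved less, apart from other IRG genes, Psme2b and Trim7. Within 500 kb of a member, by left ends in RefSeq, 17 other genes were tested and 6 rose and 1 fell, beside 19.9% and 18.1% of all genes tested. The 5 that changed at least 2-fold were the IRG genes Irgm1, Gm4841 and F830016B08Rik, and Psme2b and Trim7. Trim7, a tripartite-motif ubiquitin ligase, rose by 1.28 ± 0.226 on the log2 scale, with 2.77 TPM in treated libraries and 1.31 TPM in controls (edgeR adjusted p = 7.06e-06). The other 12 neighbours lay between -0.22 and 0.26 on the log2 scale, and 2 of them passed, Smim3 at 0.26 (adjusted p = 0.0165) and Tcof1 at -0.22 (adjusted p = 0.00174), both named after their values were seen.

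**Figure D4:**
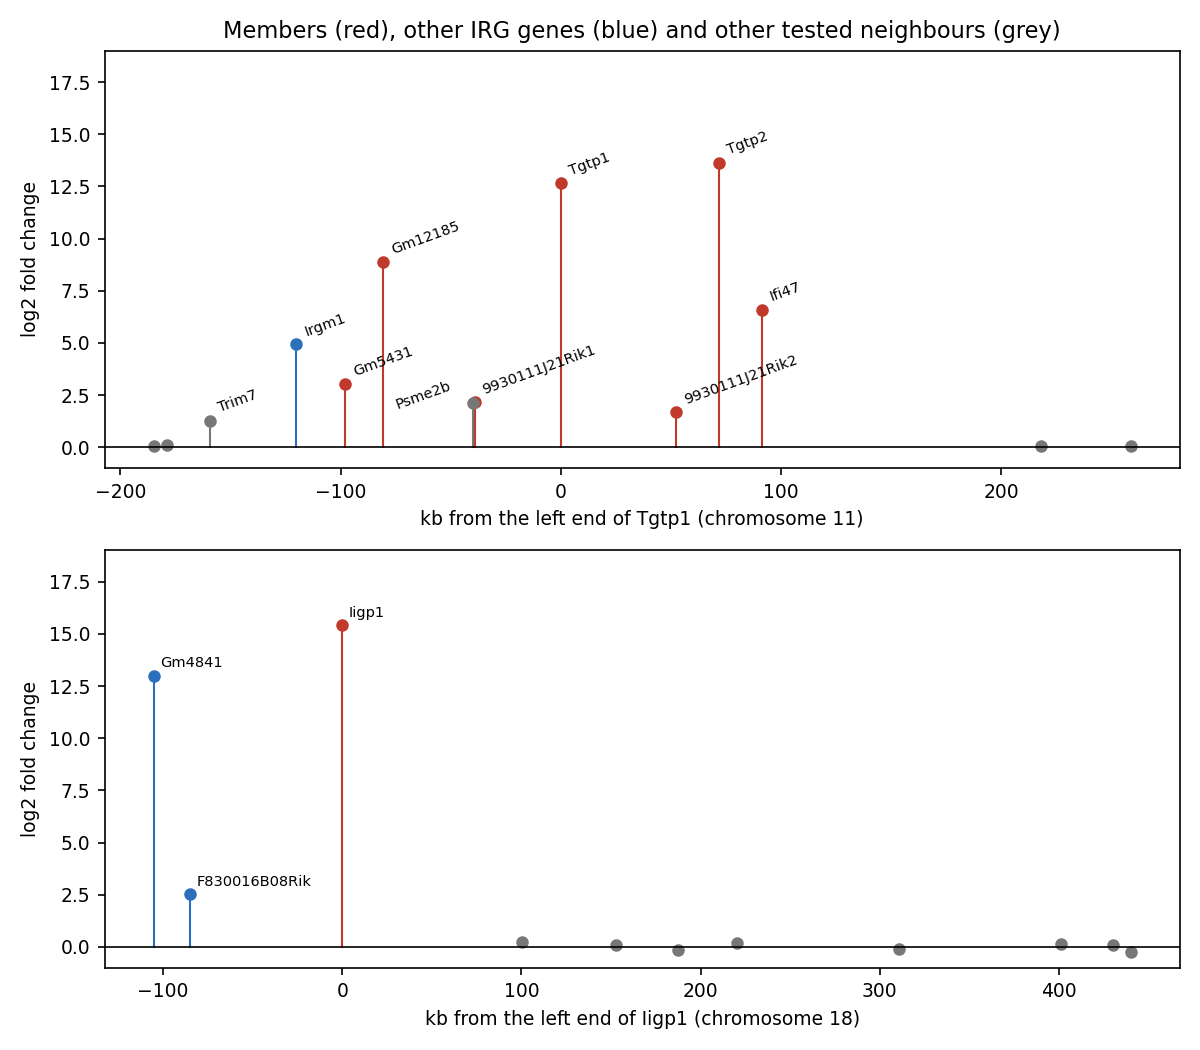
Log2 fold change of interferon-gamma over control against position, in kb from the left end of Tgtp1 on chromosome 11 (top) and of Iigp1 on chromosome 18 (bottom), for members in red, other IRG genes in blue and other tested genes within 500 kb in grey. Tall bars lie among the IRG genes, and the 12 grey genes without a name lie between -0.22 and 0.26.

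Among other IRG genes, 6 of 7 tested rose at an edgeR adjusted p under 0.05, with a median log2 change of 7.83 for the 7, where 19.9% of all genes tested rose. Of the 6, Gm12250 and Gm4841 were under 10 counts in every control. Gm4841, an IRG gene 105 kb from Iigp1, had 3453, 3567 and 3587 counts in treated replicates 1, 2 and 4, against 0, 0 and 1 in control replicates 2, 3 and 4, a ratio of 11300 (95% interval 2030 to 446000). Without control replicate 4, which held the single control read, the ratio was at least 2480-fold against 3 counts over the group, and without control replicate 2 or 3 it was 7530 or 7470. This is the same pattern of controls as in Iigp1, at a lower treated level of 118 ± 4.71 TPM (SD, n = 3). Gm12250, the effector Irgb10 of chromosome 11, rose by 8.76 ± 0.357 on the log2 scale, with 97.7 TPM in treated libraries and 0.24 TPM in controls. F830016B08Rik rose by 2.51 ± 0.0833, with 13.9 TPM in treated libraries and 2.62 TPM in controls. Irgq, an atypical relative, had a log2 change of 0.10 ± 0.128 (adjusted p = 0.513), and its direction flips without treated replicate 1 (-0.01). Irgm1, a regulatory IRG, was at 482 TPM in treated and 16.9 TPM in control libraries, a control level above that of each of the 8 genes. The regulatory Igtp (Irgm3) was at 763 TPM in treated and 1.84 TPM in control libraries, and Irgm2 at 236 TPM in treated and 1.12 TPM in control libraries, both above Iigp1 and the Tgtp genes but below Ifi47 in controls. Irgc1 was too low to test, and Gm12187, Gm4951 and Irgc had no values.

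The guanylate-binding protein (GBP) genes, listed with the related Gvin1, a family of interferon-inducible GTPases that work with IRGs at vacuoles, rose in 11 of 11 tested, of which 4 were under 10 counts in every control, with a median log2 change of 8.44 (DESeq2 called 10), where 19.9% of all genes tested rose. The rises of smallest adjusted p were Gbp2 (8.21), Gbp2b (9.33), Gbp3 (6.83) and Gbp4 (8.53), all with adjusted p between 1.02e-25 and 2.54e-25 by edgeR. Gbp2b, the gene of Gbp1, was at 2420 ± 93.3 TPM in treated and 4.07 ± 0.644 TPM in control libraries (SD, n = 3 each).

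The genes through which interferon-gamma acts rose in 7 of 9 tested and fell in 2, where 19.9% of all genes tested rose and 18.1% fell. With upper-quartile scaling, on total counts or without control replicate 4, 6 rose and 2 fell. Irf1, which binds ISRE letters, was at 929 ± 12.5 TPM in treated and 84.0 ± 2.42 TPM in control libraries (SD, n = 3 each). It rose by 3.58 ± 0.0484 on the log2 scale (edgeR adjusted p = 6.06e-22), Stat2 by 3.76 ± 0.0626 and the feedback inhibitor Socs1 by 3.01 ± 0.0922. The receptor chains were the genes that fell, Ifngr1 at a log2 change of -0.24 ± 0.0757 (edgeR adjusted p = 0.00444) and Ifngr2 at -0.33 ± 0.0373 (adjusted p = 3.87e-05), both named after their values were seen.

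The conjugation machinery of autophagy, which places IRG and GBP proteins on vacuoles, had 11 genes tested, of which 4 rose, 1 fell and 6 did not pass, with a median log2 change of 0.14. That is near the background, since 38.1% of all genes tested passed, so the count is no result about these genes. The genes of smallest adjusted p were Map1lc3b, a ubiquitin-like protein of the LC3 family (log2 0.29, adjusted p = 0.000649), its relatives Gabarap (0.20, adjusted p = 0.00379) and Gabarapl1 (0.22, adjusted p = 0.00581), and the conjugating enzyme Atg3 (0.19, adjusted p = 0.0115). The gene that fell was Atg16l1, a scaffold of the conjugation step (-0.18, adjusted p = 0.0214), named after its value was seen. Without treated replicate 2 it was not called, as 3 genes of the list rose and 0 fell. The number called was 3 without treated replicate 2, 2 without control replicate 4 and 3 on total counts, so several of these calls depend on single libraries or on the scaling. Map1lc3b kept its call in each alternative run. Of 7 tested ubiquitin ligases and adaptors linked to coated vacuoles, 3 rose and 1 fell, where 19.9% of all genes tested rose and 18.1% fell. Trim21, a ubiquitin ligase, rose by 4.12 ± 0.0974 (edgeR adjusted p = 3.56e-18), and Rnf213, a large ligase known to coat bacteria, by 2.27 ± 0.0798. The adaptor Nbr1 rose by 0.44 ± 0.0422, and the adaptor Sqstm1 was lower in treated libraries (log2 -0.27, edgeR adjusted p = 0.00126).

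The non-member genes with the most similar levels were found as those of smallest Euclidean distance in log2(TPM + 0.1) over the 6 libraries. For Iigp1 they were Gbp6 at a distance of 3.86, Apol6 at 3.97 and Gm4841 at 3.98. For Tgtp2 they were Gbp6 at 3.2, Gbp10 at 3.36 and Apol6 at 3.4. Ifi47 had closer neighbours, the nitric oxide synthase Nos2 at 1.03, the peptide transporter Tap1 at 1.19 and the immunoproteasome subunit Psmb9 at 1.48. Nos2 was at 217, 207 and 183 TPM in treated replicates 1, 2 and 4, against 3.74, 3.45 and 3.28 TPM in control replicates 2, 3 and 4.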

How the data were processed

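The authors deposited estimated counts per gene, and in each library 6.8% to 7.37% of the values had decimals. TPM and FPKM values were deposited beside them, per the file headers, and FPKM entered no result. Per the submitters' processing notes, the aligners HISAT and HISAT2 and the builds GRCm38.p6 and mm10 were involved, with roles unstated. Which program counted the reads: not given in the sources used here. No gene of the tables is at 0 in all 3 controls, whereas 673 are at 0 in all 3 treated libraries, so genes silent in the controls are not analysed here.

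For the test, estimated counts were rounded to whole numbers and fitted by edgeR 4.0.16 under R 4.3.3 (filterByExpr with minimum count 10, TMM, glmQLFit with robust=TRUE, glmQLFTest, Benjamini-Hochberg adjustment over 11423 genes, threshold 0.05), after the script was tested on simulated data. SE came from the replicates' log2 CPM with a prior count of 2, which narrows the SE of genes with few counts. CPM use TMM-scaled library sizes; before scaling the libraries held 17490689 to 18678543 counts. Ratios of depth-scaled totals are given where controls held 3 counts or fewer, with exact 95% binomial intervals that cover counting error only. Coordinates and promoters are RefSeq's, build GRCm38.p6, and coding identity and transcript windows used GENCODE M21 on the same build, with the transcript of longest coding sequence per gene. Alignments used Biopython 1.88 (global, free end gaps). Protein sequences were not used here.

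The members, lists, tests and named genes were chosen with earlier results of these data known. Named genes were the 8 members, all other IRG genes, up to 4 genes of smallest adjusted p per list, neighbours changed at least 2-fold and the 3 nearest profiles of 3 members; 1 gene of the signalling list is not reported here. The marker genes Ptprc, Cd14, Epcam, Cdx2, Cldn3, Cldn7, Vim and Thy1 were named after their values were seen. Alternatives were other scalings, filters and rounding, DESeq2 1.42.0, limma-voom (limma 3.58.1), summed gene pairs, a replicate block and left-out libraries.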

Additional observations from a re-analysis of the deposited data

How the results depend on the processing

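All 8 members rose under each of 16 alternatives, among them DESeq2, limma-voom and every left-out library. With similar pairs summed, 6 features took their place and all 6 rose. The 5 members under 10 counts in every control passed the low-count filter through the treated libraries alone. Their calls add nothing to these counts, which rest on Ifi47, 9930111J21Rik1 and 9930111J21Rik2. Log2 changes were 14.77 to 17.24 for Iigp1, 13.1 to 16.75 for Tgtp2, 12.3 to 13.25 for Tgtp1, 8.55 to 9.52 for Gm12185, 6.45 to 6.8 for Ifi47, 2.71 to 3.21 for Gm5431, 2.06 to 2.23 for 9930111J21Rik1 and 1.34 to 1.79 for 9930111J21Rik2. The controls of Iigp1 and Tgtp2 held 1 and 3 counts in total. The number of loading genes called was 5 and became 3 on total counts, and 2 to 6 over left-out libraries; the cause was not tested. A window of 1 Mb gave 11 called neighbours of 25 tested, since more genes entered. Irgq, not called in any of them, was at -0.03 with a replicate block and between -0.01 and 0.19 over left-out libraries. Gabarap, Gabarapl1 and Atg3 lost their calls under 7 gene and setting pairs, as without control replicate 4 (edgeR adjusted p = 0.0561 for Gabarap). Atg16l1, outside those pairs, lost its call without treated replicate 2. With the replicate number as a block, 8 members were called. Only the numbers 2 and 4 occur in both groups, so that fit compares treated with control within those numbers alone. The correlation of same-numbered deviations was 0.128 for number 2 and -0.0899 for number 4. Over all pairs of a treated and a control library it ran from -0.146 to 0.161. These values cannot decide whether same-numbered samples share more than a number. Over all genes, 2278 rose and 2069 fell, against 1775 and 2823 after upper-quartile scaling and 1644 and 3124 on total counts. Depth limits the control levels of the 5 members with counts under 10 there.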
